A study of Mus musculus with 4 samples.

Results

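The genes described here are 10 transcription factors that set and hold the mesenchymal and fibroblast state, Twist1, Twist2, Snai1, Snai2, Zeb1, Zeb2, Prrx1, Tcf21, Runx1 and Runx2, in fibroblasts taken from mouse mammary tumours. They were chosen by name, and all 10 are among the 22456 genes of the deposited table. Of these, 9 passed the filter on low values (a mean of at least 10 on the linear scale, 3.32 on the log2 scale) and were tested, and Tcf21 did not pass it. The GSK group holds 2 libraries and the DMSO group 2 libraries. In both groups the hosts were Balb/c mice (Balb/cAnN in the isolation protocol) bearing orthotopic fat pad tumours grown from 4T1, a Balb/c mammary carcinoma line, and fibroblasts were taken 8 days after injection. In the GSK group the 4T1 cells had been kept before injection for 5 days in 5 µM GSK269962A, a small-molecule kinase inhibitor. In the DMSO group the 4T1 cells had been kept in DMSO, the solvent. The compound was therefore given to the cancer cells and not to the fibroblasts that were sequenced. The fibroblasts are the fraction that remained once magnetic columns had held back cells positive for human CD2 or for mouse CD31, CD45 or CD326, so the fraction was selected by what it lacks. Nothing in the labels ties a library to its own animal or to a pool, so the p-values cover the scatter among these 4 libraries and nothing more, and that scatter may be technical. Ages and read counts are not stated in the labels, so the depth is unknown.

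TWIST, SNAIL and ZEB proteins are known as the factors that drive epithelial to mesenchymal transition. TWIST proteins and TCF21 carry a basic helix-loop-helix domain, pair with the broadly expressed E proteins and bind E-boxes. SNAIL and ZEB proteins are zinc-finger repressors that bind an E-box variant in epithelial genes such as the E-cadherin gene Cdh1. In cells that are already mesenchymal, as fibroblasts are, these factors are normally expressed. PRRX1 is a paired-related homeodomain factor of limb and connective tissue mesenchyme, TCF21 is required for fibroblasts of the epicardium, RUNX1 is best known from blood formation and RUNX2 from bone formation, and both RUNX proteins bind DNA together with CBFB.

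Many of these proteins recognise short motifs, and windows at the start sites of Snai1, Runx1, Runx2 and Prrx1 hold a motif of their own family. The stretches below are shown because they carry those motifs. They come from RefSeq promoter windows on GRCm38.p6, each 250 bases before to 50 after an annotated start, which listed 8 of the 10 genes. Snai2 and Zeb1 had no entry. The Snai1 stretch ends at the base before the start site (chr2:167537945-167538194, plus strand), and its capitals mark CACCTG, the E-box variant bound by SNAIL and ZEB proteins, whose first base is at position -126 from the start. The Runx1 and Runx2 stretches (chr16:92826026-92826055 and chr17:44814584-44814613, both minus strand) lie just after the start of the distal promoter, and their capitals mark the longest run of letters that the windows of both genes share. The Prrx1 stretch (chr1:163313806-163313835, minus strand) has TAATTA, the homeodomain core, in capitals, with its first base at position -173.
Snai1: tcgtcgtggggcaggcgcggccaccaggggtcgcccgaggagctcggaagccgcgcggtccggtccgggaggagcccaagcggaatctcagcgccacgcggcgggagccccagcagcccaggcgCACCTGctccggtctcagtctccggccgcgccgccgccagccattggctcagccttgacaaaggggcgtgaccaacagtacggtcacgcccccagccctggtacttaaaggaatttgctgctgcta
Runx1: tcatAAACAACCACAGAACCACAAGTtggg
Runx2: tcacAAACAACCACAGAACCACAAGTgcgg
Prrx1: gcaagggaatgaTAATTAgacctttatttt
The run shared by Runx1 and Runx2 is 22 bases long, holds the RUNX core ACCACA 2 times, and is found in 2 of the 32851 promoter windows, those of Runx1 and Runx2 themselves. Searched on both strands, CACCTG, read as CAGGTG on the other strand, is in 20.2% of the windows, ACCACA, read as TGTGGT on the other strand, is in 16.8%, and TAATTA, its own reverse complement, is in 5.29%. CANNTG, the general E-box of which CACCTG and CAGGTG are cases, is in 72.3% of the windows and was not found in these letters of the windows listed for Twist1, Twist2 and Tcf21. CACCTG was not found in any window listed for Zeb2, nor ACCACA in the other window of Runx1 (start at 92697329). A match is a description of the letters and not a binding site.

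Fibroblast markers were high in every library, and markers of the removed cell types were mixed. All 12 fibroblast markers were tested, and their log2 levels lay between 10.65 (Fap) and 20.58 (Col1a1). Over the 4 libraries, the genes of the depleted surface proteins were low, with Ptprc (CD45) at 3.77 to 3.91, Pecam1 (CD31) at 3.30 to 3.34 and Epcam (CD326) at 0.32 (log2). Other markers of the same cell types were higher: in leukocytes Cd53 at 10.46 to 11.81, Cd3e at 8.40 to 8.997 and Csf1r at 8.14 to 8.39, in endothelium Flt1 at 10.58 to 11.33 and Tek at 7.52 to 7.73, and in epithelium Krt19 at 8.56 to 8.996 (log2). Pericytes and smooth muscle were not a target of the depletion, and all 12 of their markers were tested. Their summed log2 level was 15.75 and 15.83 in GSK libraries 1 and 2 and 15.49 and 15.74 in DMSO libraries 1 and 2. In bulk samples, fewer cells of a type and less RNA per cell cannot be told apart.

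Of the 10 factors, 9 were well expressed in these fibroblasts and Tcf21, at the 11.3th percentile of the annotated genes, was not. To compare genes, the log2 level was taken per kb of annotated exon (GENCODE M21). Snai1 was the highest at 10.50 ± 0.07 (log2 per kb, mean ± SD over the 4 libraries of both groups), followed by Prrx1 at 9.90 ± 0.05, Twist1 at 9.51 ± 0.07 and Runx1 at 9.11 ± 0.11. These 4 genes stood above at least 92.5% of the annotated genes of the table, with Snai1 at the 97.0th percentile. The next were Snai2 at 8.26 ± 0.07 and Twist2 at 8.11 ± 0.11 (log2 per kb), whose ranges over the libraries overlapped. Zeb2 at 7.78 ± 0.06 and Runx2 at 7.67 ± 0.07 (log2 per kb) also overlapped, and Zeb1 lay below them at 7.22 ± 0.10. All other neighbours in this order were apart in every library.

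The order depends on the length used, since the exon sets of Prrx1, Runx1 and the ZEB genes are much longer than any single transcript. With the longest transcript in place of all exons, Prrx1 was the highest at 10.67 (log2 per kb), above Snai1 at 10.50, Runx1 at 10.14 and Twist1 at 9.51, and Zeb2 at 8.91 came before Twist2, Snai2, Runx2 and Zeb1. Within each family the order was the same by either length: Snai1 was above Snai2, Twist1 above Twist2, Zeb2 above Zeb1 and Runx1 above Runx2. Tcf21, on chromosome 10 (22817281 to 22820174, GRCm38), was last by both, at -0.66 ± 0.01 with all exons and -0.26 with the longest transcript (log2 per kb).

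**Figure D1:**
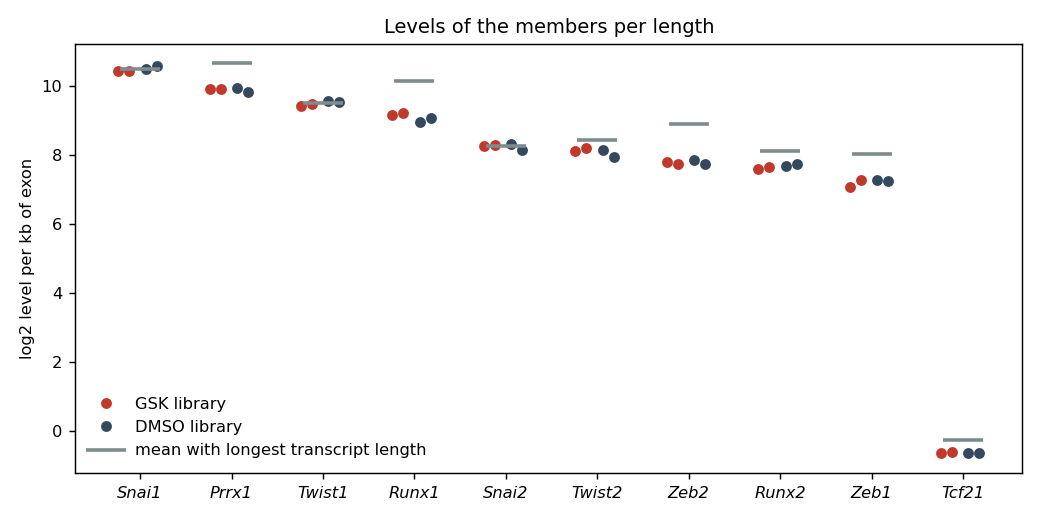
Log2 level per kb of exon of each of the 10 factors (vertical axis), in order of the mean, with each GSK and each DMSO library as a point and a grey bar for the mean with the longest transcript length. Snai1 leads at 10.50, 9 factors lie above 7, and Tcf21 is at -0.66.

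The comparison of GSK with DMSO asks whether fibroblasts of tumours from pre-treated cancer cells differ in these regulators. None of the 9 tested factors passed an adjusted p of 0.05 in limma, a linear model fitted over all 14548 tested genes with Benjamini-Hochberg adjustment, where 41 genes (0.282%) passed, 0.151% higher and 0.131% lower. At an unadjusted p under 0.05 there were 2 of the 9, Runx1 with a higher and Twist1 with a lower estimate, beside 16% of all tested genes, 7.88% higher and 8.13% lower. In 4 of the 9 both GSK libraries lay on the same side of both DMSO libraries, Runx1 above and Twist1, Snai1 and Runx2 below, beside 48.6% of all tested genes, 24.1% with GSK above and 24.5% with GSK below. The median difference over the 9 was -0.04 (log2), beside a median of -0.0007 over all tested genes. Shares near those of all genes are no result about these factors. How the authors transformed the values is not stated, and if they were drawn in towards the mean of each gene, differences in the reads would be larger than on this scale.

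Twist1 and Twist2 had estimates of opposite sign. Twist1 (ENSMUSG00000035799, chromosome 12, 33957671 to 33959829) was at 10.13 and 10.19 (log2) in GSK libraries 1 and 2, against 10.29 and 10.26 in DMSO libraries 1 and 2. Both GSK libraries were below both DMSO libraries, by little. The difference was -0.11 ± 0.04 (log2, SE), a fold of 0.926 with a 95% interval of 0.859 to 0.998 before adjustment (limma adjusted p = 0.296). Twist1 is also known to be expressed by 4T1 cells, and the summed level of 14 epithelial or 4T1 markers was 9.47 and 9.30 (log2) in GSK and 9.72 and 9.59 in DMSO, with Krt19 and Lcn2 the highest of them and Epcam near 0. The part of these markers in the Twist1 values was not tested.

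Twist2 (ENSMUSG00000007805, chromosome 1, 91801461 to 91848028), which represses and activates largely through the same E-boxes as Twist1, was at 9.80 and 9.87 (log2) in GSK against 9.81 and 9.62 in DMSO. The groups overlapped, and DMSO library 2 was the low one. The difference was 0.12 ± 0.07 (log2, SE; fold 1.09, 95% interval 0.964 to 1.23; limma adjusted p = 0.458), and 0.02 without DMSO library 2. An antisense gene on the other strand, Gm29100, shares 1477 exon bases with Twist2, 46.5% of its exon length. Gm29100 itself was listed at 4.81 and 4.76 (log2) in GSK and 4.80 and 4.78 in DMSO, and since the strand setting of the counting was not given, the value of Twist2 is uncertain.

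The SNAIL genes encode zinc-finger repressors that recruit histone-modifying co-repressors through an N-terminal SNAG domain. Snai1 (ENSMUSG00000042821, chromosome 2, 167538195 to 167542814), whose own upstream stretch above holds 1 CACCTG, was at 11.14 and 11.14 (log2) in GSK against 11.20 and 11.30 in DMSO. The GSK libraries were nearly equal and both below DMSO. The difference was -0.11 ± 0.05 (log2, SE; fold 0.928, 95% interval 0.855 to 1.01; limma adjusted p = 0.351), and it ran from -0.15 without DMSO library 1 to -0.06 without DMSO library 2. Snai2, also called Slug (ENSMUSG00000022676, chromosome 16, 14705852 to 14709385), was at 9.30 and 9.31 (log2) in GSK against 9.34 and 9.17 in DMSO. The GSK values lay between the DMSO values. Its difference was 0.05 ± 0.06 (log2, SE; fold 1.04, 95% interval 0.933 to 1.15; limma adjusted p = 0.729), and -0.03 without DMSO library 2.

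The ZEB genes encode large repressors with a zinc-finger cluster near either end. Zeb1 (ENSMUSG00000024238, chromosome 18, 5591860 to 5775467) was at 10.43 and 10.63 (log2) in GSK against 10.65 and 10.61 in DMSO. GSK library 1 was low and the other 3 libraries lay close together. The difference was -0.10 ± 0.07 (log2, SE; fold 0.934, 95% interval 0.830 to 1.05; limma adjusted p = 0.540), and it was 0.002 without GSK library 1. Zeb2 (ENSMUSG00000026872, chromosome 2, 44983632 to 45117395) was at 12.12 and 12.05 (log2) in GSK against 12.18 and 12.06 in DMSO. The groups overlapped, with library 1 above library 2 in each. The difference was -0.04 ± 0.06 (log2, SE; fold 0.976, 95% interval 0.886 to 1.07; limma adjusted p = 0.802), and it was 0.02 without DMSO library 1. The antisense gene Zeb2os shares 653 exon bases with Zeb2, 3.27% of its exon length, and was listed at 5.74 and 5.86 (log2) in GSK and 5.82 and 5.81 in DMSO.

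**Figure D2:**
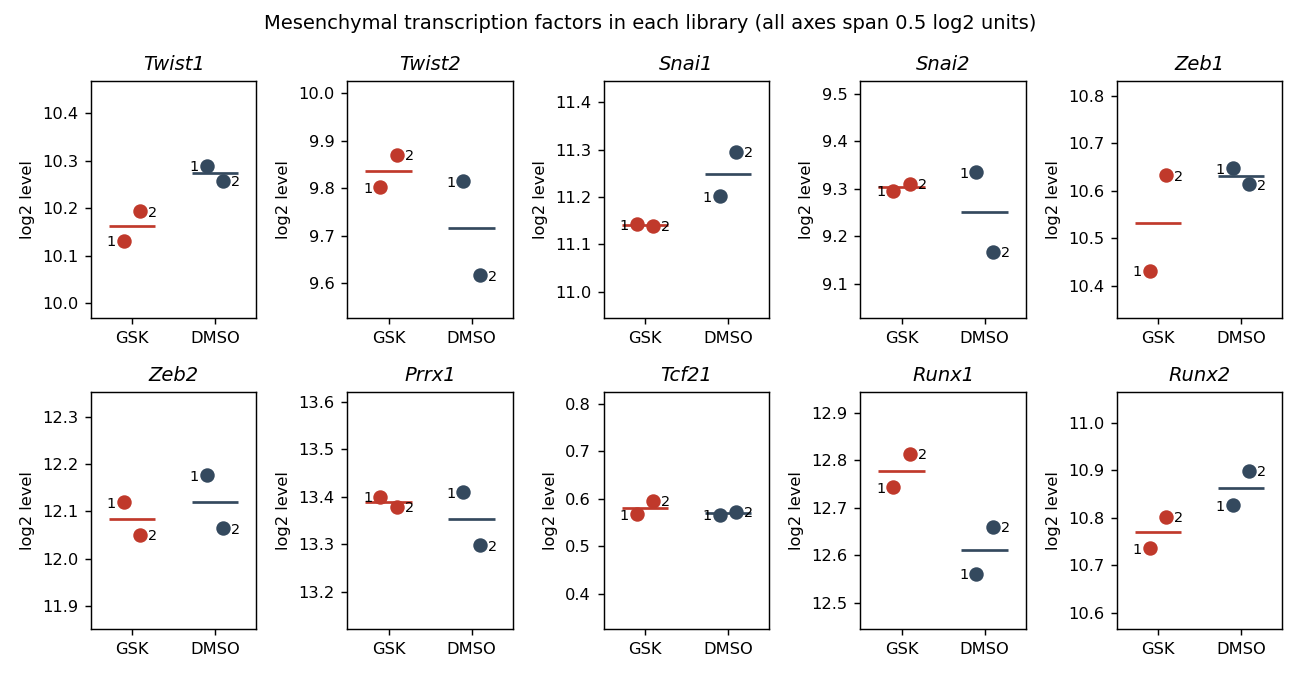
Deposited log2 level (vertical axis, spanning 0.5 units in every panel) of each factor in the GSK libraries (left) and the DMSO libraries (right), with the library number beside each point and a line at the group mean. The groups are apart for Twist1, Snai1, Runx1 and Runx2 and overlap for the other 6 genes.

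Prrx1 and Tcf21 are the factors outside the TWIST, SNAIL, ZEB and RUNX families. Prrx1 did not pass the test and Tcf21 did not pass the filter. Prrx1 (ENSMUSG00000026586, chromosome 1, 163245119 to 163313710) was at 13.40 and 13.38 (log2) in GSK against 13.41 and 13.30 in DMSO. DMSO library 2 was the low one and the other 3 libraries were within 0.03. The difference was 0.04 ± 0.06 (log2, SE; fold 1.03, 95% interval 0.928 to 1.13; limma adjusted p = 0.807), and -0.02 without DMSO library 2. Tcf21 (ENSMUSG00000045680) was at 0.57 and 0.60 (log2) in GSK against 0.57 and 0.57 in DMSO, levels at which the deposited values hardly vary between libraries. When every gene of the table was tested, its difference was 0.01 ± 0.01 (log2, SE; limma adjusted p = 0.674), which at this level shows neither a change nor the lack of one. Prrx2, the paralogue of Prrx1, was tested at a difference of -0.02 (log2).

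The RUNX genes had estimates of opposite sign and groups that did not overlap for either gene. Runx1 (ENSMUSG00000022952, chromosome 16, 92601466 to 92826149) was at 12.74 and 12.81 (log2) in GSK against 12.56 and 12.66 in DMSO. Both GSK libraries were above both DMSO libraries, and DMSO library 1 was the lowest. The difference was 0.17 ± 0.06 (log2, SE), the largest in size of the 9, a fold of 1.12 with a 95% interval of 1.02 to 1.24 before adjustment (limma adjusted p = 0.233). Of all tested genes, 9.53% had a larger difference in either direction. It ran from 0.12 without DMSO library 1 to 0.22 without DMSO library 2.

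Runx2 (ENSMUSG00000039153, chromosome 17, 44495987 to 44814797), the factor required for osteoblasts, was at 10.74 and 10.80 (log2) in GSK against 10.83 and 10.90 in DMSO. Both GSK libraries were below both DMSO libraries. The difference was -0.09 ± 0.05 (log2, SE; fold 0.937, 95% interval 0.863 to 1.02; limma adjusted p = 0.411), and it ran from -0.13 without DMSO library 1 to -0.06 without DMSO library 2. The antisense gene Runx2os1 shares 519 exon bases with Runx2, 5.87% of its exon length, and was listed at 4.88 to 4.91 (log2) in the 4 libraries. Both genes have alternative promoters, and the table gives each gene as a whole, so the share of the distal promoter that carries the run printed above is not known from it. Runx3, the remaining gene of the family, was at 4.87 to 4.90 (log2) over the libraries, with a difference of -0.02.

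The summed levels of leukocyte, endothelial, and pericyte and smooth muscle markers were, as Runx1 was, higher in both GSK libraries than in both DMSO libraries. For leukocytes and for endothelium this came through 1 gene each. Leukocytes express Runx1, and of 18 leukocyte markers 8 were tested. The 1 with an unadjusted limma p under 0.05 was Cd53, beside 16% of all tested genes. Their summed log2 level was 12.10 and 11.56 in GSK and 11.36 and 11.11 in DMSO, set mainly by Cd53 at 11.81 and 11.15 in GSK and 10.70 and 10.46 in DMSO. The median difference of the 8 was 0.02 (log2), with Cd3e at -0.30 and Csf1r at -0.12, while 6 of the 18 were under 1, Spi1 among them. Within each group the leukocyte sum was higher in library 1 and Runx1 in library 2. Of 12 endothelial markers 6 were tested, and the summed log2 level of the 11 in the table was 11.51 and 11.13 in GSK and 10.89 and 10.90 in DMSO, set mainly by Flt1, while Tek was at -0.10 and Kdr at -0.06 (log2). The summed pericyte and smooth muscle level was 15.75 and 15.83 (log2) in GSK and 15.49 and 15.74 in DMSO. It had the same order of libraries as Runx1, with DMSO library 1 the lowest, but GSK library 1 was barely above DMSO library 2. Its highest marker, Acta2, was at 14.91 and 15.05 (log2) in GSK and 14.68 and 14.98 in DMSO, so the groups overlapped. For 5 of its markers GSK lay wholly above DMSO and for 3 below, beside 24.1% and 24.5% of all tested genes. The 3 were Kcnj8, Abcc9 and Ndufa4l2. None of the 12 pericyte and smooth muscle markers passed the adjusted threshold (median difference 0.16, log2). At an unadjusted limma p under 0.05, 5 were higher and 1 lower, beside 7.88% and 8.13% of all tested genes. The part of these cell types in the Runx1 difference was not tested, nor was it for Tcf4, Wnt5a and Mmp13 below, which were also higher in both GSK libraries.

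**Figure D3:**
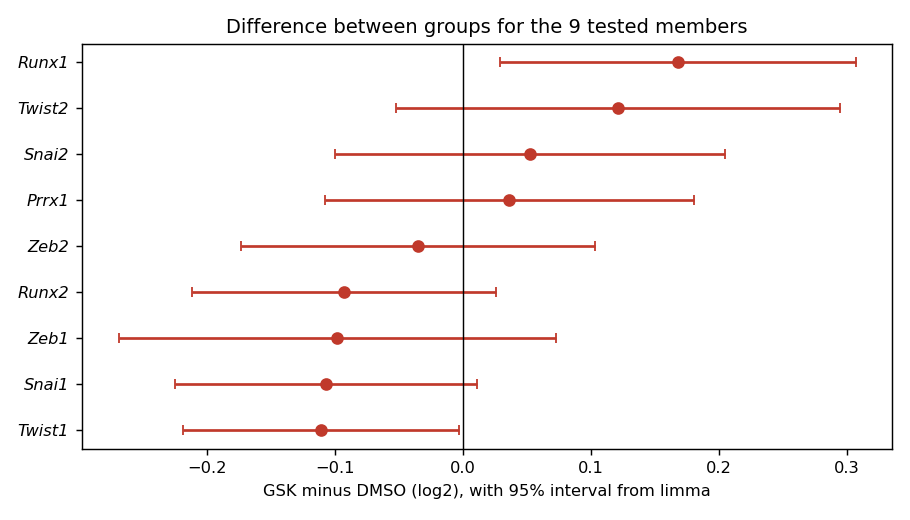
Difference of GSK minus DMSO (log2, horizontal axis) for each of the 9 tested factors as a point, with the 95% interval from limma before adjustment as a bar. Runx1 at 0.17 and Twist1 at -0.11 have intervals that leave out 0, and no adjusted p is under 0.05.

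The intervals bound what these libraries allow. Over the 9 factors they reached from 0.830-fold (Zeb1) to 1.24-fold (Runx1) on the scale of the deposited values, before adjustment. Differences beyond that range lie outside the intervals of these factors, on that scale alone.

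Genes that work with these factors or lie downstream of them were then counted in lists. Of the tested genes in 8 lists, those past the threshold were Wnt5a and Mmp13. Proteins that pair with or block helix-loop-helix factors include the E proteins and the ID proteins. They were listed together with other helix-loop-helix genes, and of 14 listed, 10 were tested and none passed (median -0.01, log2). Tcf4, an E protein that dimerises with TWIST and TCF21, was at 12.61 and 12.60 (log2) in GSK against 12.23 and 12.25 in DMSO. Its groups were well apart and its replicates close. The difference of 0.36 ± 0.05 (log2, SE) just missed the threshold (limma adjusted p = 0.0543). With group as the only term, Tcf4 was under the threshold with median centring (0.0458) and with a robust variance prior (0.0434). It was over the threshold with no filter (0.222), a filter at a mean of 50 (0.0550), quantile normalisation (0.0523) and a variance prior without trend (0.0634). The difference ran from 0.35 without DMSO library 1 to 0.38 without DMSO library 2. Id2, an inhibitor that binds E proteins, was at -0.23 ± 0.05 (log2, SE; limma adjusted p = 0.118), Id4 at 0.08 and Tcf24 at -0.06.

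No gene listed with the co-repressors of SNAIL and ZEB proteins, and none listed with the regulators of SNAIL stability, passed the test. All 12 genes of the co-repressor list were tested (median -0.002, log2). At an unadjusted p under 0.05 in limma, 0 were higher and 0 lower, beside 7.88% and 8.13% of all tested genes. The LIM-domain genes Ajuba, Lmcd1 and Limd1 were at 0.17, -0.29 and 0.12 and Ezh2, a histone methyltransferase, at -0.09. Lmcd1 was at 9.38 and 8.72 (log2) in GSK and 9.64 and 9.04 in DMSO, with library 1 above library 2 in each group. Of 11 SNAIL stability genes 10 were tested and none passed (median -0.006, log2). Fbxw7, a ubiquitin ligase subunit, was at 0.14, the kinases Csnk1a1 and Pak1 at -0.13 and -0.12, and Ctdsp1, a phosphatase, at 0.07.

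Of 18 RUNX partners 15 were tested and none passed (median 0.02, log2). At an unadjusted limma p under 0.05, 3 were higher and 0 lower, beside 7.88% and 8.13% of all tested genes. Cbfb, the shared DNA-binding partner, was at 0.07, and among the genes with the smallest p were the homeobox gene Msx1 at 0.23, Cbfa2t3 at 0.22 and Yap1, a co-activator, at 0.17. Of 53 other regulators of mesenchyme 40 were tested and none passed, with 5 higher and 5 lower at an unadjusted p under 0.05, beside 7.88% and 8.13% of all tested genes (median -0.03, log2). The odd-skipped genes Osr1 and Osr2, which mark connective tissue progenitors, were at -0.37 ± 0.09 and -0.34 ± 0.05 (log2, SE; limma adjusted p = 0.142 and 0.0578). Osr2 was at 8.93 and 8.99 (log2) in GSK against 9.26 and 9.34 in DMSO, with both GSK libraries below. With group as the only term, Osr2 was under the threshold with median centring (limma adjusted p = 0.0483) and with a robust variance prior (0.0461). It was over the threshold with no filter (0.222), a filter at a mean of 50 (0.0610), quantile normalisation (0.0782) and a variance prior without trend (0.0763). Its difference was -0.38 without DMSO library 1 and -0.30 without DMSO library 2. That of Osr1 was -0.22 without DMSO library 1 and -0.52 without DMSO library 2. Foxs1, a forkhead gene, was at 0.26 and Ebf3 at -0.20.

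The genes that SNAIL and ZEB proteins repress were mostly near the floor. Of 34 epithelial genes 29 were in the table, 16 were under the filter, Cdh1 (2.22 to 2.25, log2) and Epcam among them, and none of the 13 tested passed (median -0.002). Jup, which encodes junction plakoglobin, was at 0.37 and the cadherin Cdh3 at 0.29, against Krt19 at -0.29 and Krt18 at -0.07 (log2). The difference of Cdh3 ran from 0.15 without DMSO library 1 to 0.44 without DMSO library 2. Its limma adjusted p over all 4 libraries was 0.200.

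Of 30 mesenchymal genes of the transition programme all were tested (median 0.03, log2). With an unadjusted limma p under 0.05, 5 were higher and 2 lower, beside 7.88% and 8.13% of all tested genes. Past the threshold, 1 was higher and none lower, beside 0.151% and 0.131% of all tested genes. It was Wnt5a, a non-canonical Wnt ligand, at 12.69 and 12.54 (log2) in GSK against 11.87 and 12.02 in DMSO. Its groups were apart, with a fold of 1.59 (limma adjusted p = 0.0374), which missed the threshold without DMSO library 1 (0.111) and without GSK library 1 (0.0530), with no filter (0.222) and with a variance prior without trend (0.0655). S100a4, a calcium-binding protein often used as a fibroblast marker, was at 8.88 and 8.81 (log2) in GSK against 9.68 and 9.34 in DMSO. The difference was -0.67 ± 0.11 (log2, SE) with a limma adjusted p of 0.0618. It ran from -0.50 without DMSO library 1 to -0.84 without DMSO library 2. Cdh6 was at 0.28, Vim at -0.11, Fn1 at 0.18 and Cdh2 at 0.08 (log2).

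Of 20 osteogenic genes known downstream of RUNX2, 12 were tested and 1 passed, beside 0.282% of all tested genes. It was Mmp13, a collagenase gene with known RUNX2 sites in its promoter. Mmp13 was at 13.65 and 14.23 (log2) in GSK against 11.87 and 12.33 in DMSO, 3.57-fold higher (limma adjusted p = 0.0460). The adjusted p of Mmp13 was 0.0876 without DMSO library 1, and under the other alternatives that ended the call it ran from 0.0524 with a filter at a mean of 50 to 0.222 with no filter. Ibsp, bone sialoprotein, was at 0.17 (log2; limma adjusted p = 0.0840), Spp1, osteopontin, at 0.36 and Bmp3 at -0.25. The median of the list was 0.04, and Sp7, the osteoblast factor next to RUNX2, was under the filter. Of the 12 tested, 3 were higher and 1 lower at an unadjusted limma p under 0.05, beside 7.88% and 8.13% of all tested genes. Runx2 itself was at -0.09 in the same comparison.

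**Figure D4:**
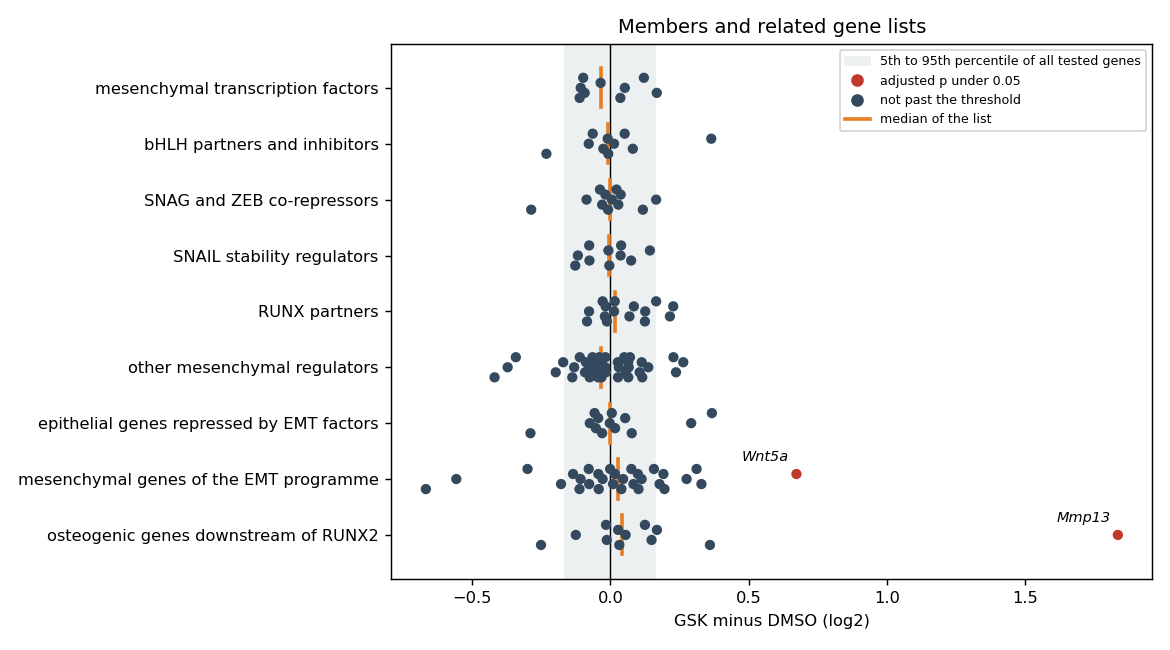
Difference of GSK minus DMSO (log2, horizontal axis) for every tested gene of the 10 factors and the 8 related lists, with red points past an adjusted p of 0.05, an orange bar at each list's median and a grey band from the 5th to the 95th percentile of all tested genes (-0.17 to 0.16). Wnt5a at 0.67 and Mmp13 at 1.83 are the red points, and each median lies between -0.04 and 0.04.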

How the data were processed

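The authors deposited 1 table of normalised expression values on a log2 scale. Per the submitters' processing notes, RSEM (1.2.29), DESeq2 (1.12.4) and Bowtie2 were used, with GRCh38 and mm10 listed as builds and no roles stated. The transformation, annotation and strand setting were not found there. The values ran from -1.04 to 20.58, which gave the log2 unit. Tested genes spanned a median of 0.113 over the 4 libraries, against 0.0178 in the 7908 genes below the filter, so low genes hardly vary; whether higher genes were also drawn in towards their mean is not known. Depth is unknown.

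Positions, symbols and exon lengths were taken from GENCODE M21 (GRCm38), which held 22357 of the identifiers. Differences were tested two-sided with limma 3.58.1 in R 4.3.3, with no pseudocount, group as the only term and a variance prior that follows the mean; SE is limma's moderated standard error. The test was tested on simulated data. The text names all 10 factors and, of each list, every gene past the threshold and the 4 with the smallest p, predicted genes and pseudogenes left out; 2 genes that the rule names are not reported here. Cbfb, Cdh1, Cdh2, Fn1, Prrx2, Runx3, Sp7 and Vim fall outside this rule and were chosen after values were seen. Factors and lists were chosen with earlier results of these data known, so no set test or p over a list was used.

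Transcripts were aligned with blastn 2.17.0. At 98% identity over 200 bases, Twist2, Runx2, Wnt5a, S100a4, Cbfa2t3, Ctdsp1 and Tcf24 share sequence with an overlapping or similar gene and are uncertain. The labels give no batch.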

Additional observations from a re-analysis of the deposited data

How the results depend on the processing

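None of the 9 tested factors passed under any alternative except the replicate block, where 1 did, Runx1 (difference 0.17, adjusted p = 0.0307). The replicate numbers are not said to pair libraries. Deviations of equally numbered libraries from their group means correlated at 0.428 across genes, but with 2 numbers this does not establish pairs. Of the list genes named, Ajuba, Bmp3, Cdh3, Cdh6, Ebf3, Foxs1, Ibsp, Id2, Jup, Krt19, Lmcd1, Msx1, Osr1, Osr2, S100a4, Tcf4 and Yap1 also passed with the block (adjusted p from 0.000927 for S100a4 to 0.0401 for Cdh3; 0.00473 for Lmcd1, 0.00134 for Tcf4). The count of genes past the threshold, 41 in the model with group only, was 1374 with the replicate block, 1 with no filter, 23 after quantile normalisation, 126 with median centring (which shifted no library by more than 0.0081), 11 with a variance prior without trend and 138 with a robust prior; it ran from 7 (without DMSO library 1) to 194 (without DMSO library 2) when a library was left out. The cause was not tested. A group left with 1 library is assumed to vary like the other. Twist1, Twist2, Snai1, Runx1 and Runx2 kept their sign throughout. The others turned when a library was left out: Prrx1 ran from -0.020 to 0.092, Snai2 from -0.032 to 0.14, Zeb1 from -0.20 to 0.0025, Zeb2 from -0.091 to 0.020 and Lmcd1 from -0.61 to 0.040. With the longest transcript as length, levels per kb were 10.67 for Prrx1, 10.14 for Runx1, 8.44 for Twist2, 8.91 for Zeb2, 8.12 for Runx2, 8.04 for Zeb1 and -0.26 for Tcf21.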

Other observations

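Within a library, the ratio of the members of a gene family is unchanged by a constant added to all log2 values of that library. Other normalisations can move it: after quantile normalisation the difference of Runx1 was 0.21 and that of Runx2 -0.09 (log2). The values of the ratio were looked at after those of the single genes. The log2 ratio of Runx1 to Runx2 was 2.01 and 2.01 in GSK libraries 1 and 2 and 1.74 and 1.76 in DMSO libraries 1 and 2. That of Twist1 to Twist2 was 0.33 and 0.32 in GSK and 0.47 and 0.64 in DMSO. In both ratios the groups were apart, and for Runx1 to Runx2 the replicates lay within 0.03 of each other. That the Runx1 to Runx2 groups were apart follows from the single genes, Runx1 above and Runx2 below in both GSK libraries. The log2 ratio of Snai1 to Snai2 was 1.85 and 1.83 in GSK and 1.87 and 2.13 in DMSO, also apart, though DMSO library 1 lay close to GSK. That of Zeb1 to Zeb2 was -1.69 and -1.42 in GSK and -1.53 and -1.45 in DMSO, where the groups overlapped. These ratios were not tested. The share of other gene pairs whose groups are apart was not counted, and of single tested genes 48.6% are apart.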
